A study of Mus musculus with 9 samples.

Results

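The genes described are 10 components of the gp130 cytokine system, 5 receptor chains (Il6st, Il6ra, Il11ra1, Lifr and Osmr) and 5 ligands (Il6, Il11, Lif, Osm and Clcf1). They were chosen by symbol, with no measured value used, and all 10 have a row among the 24346 genes of the deposited expression table. The libraries were RNA sequencing of cell lines grown from MMTV-neu mammary tumours of FVB/N mice, in which the mouse mammary tumour virus promoter drives the neu oncogene in mammary epithelium. There were 4 libraries labelled Jak1 knockout (lines 45555, 47298, 45566B and 46295) and 5 labelled Jak1 wild type (lines 45555, 47298, 45566B, 33373 and 33377). In lines 45555, 47298 and 45566B, which received puromycin, the knockout library is titled Cre and its wild-type partner Wt. Lines 46295, 33373 and 33377 were present in 1 state each, titled 46295-D6, 33373-Mneu and 33377-Mneu, with no Cre, Wt or Puro in the title. Every line carries the transgene, every state of a line is a single library, and the labels name no separate cultures, so the spread between libraries of a state is a spread between lines.

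gp130, encoded by Il6st, is the shared signalling chain of the IL-6 cytokine family. IL-6 and IL-11 bind their own alpha chains, encoded by Il6ra and Il11ra1, and the complex then brings gp130 molecules together. LIF signals through gp130 paired with the LIF receptor, mouse oncostatin M mainly through gp130 paired with the OSM receptor, and cardiotrophin-like cytokine (Clcf1) through gp130, the LIF receptor and the CNTF receptor. JAK1 is the main kinase bound to gp130 and activates STAT3, and in the mammary gland LIF acting through STAT3 is known for its part in involution after weaning.

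The libraries differed in depth and in tissue character before any comparison by genotype. The deposited unit is FPKM, in which fragments are divided by transcript length and by library size, which lets levels be compared between genes. The number of fragments is unknown, but relative to 45566B wild type, the deepest library, the depth of the others was between 0.417 and 0.767. Jak1 itself stood at 74.4, 27.5 and 14.2 FPKM in the knockout libraries of 45555, 47298 and 45566B, against 86.7, 63.1 and 16.1 FPKM in their wild-type partners. It stood at 22.97 FPKM in 46295 knockout, against 19.4 and 54.6 FPKM in wild-type lines 33373 and 33377, and a whole-gene value cannot show a deleted exon. The column names of 33373 and 33377 lack the suffix that the other 7 libraries carry, and the fits and correlations that use these lines are also given without them. The summed level of 9 epithelial markers ranged from 7.45 to 3157 FPKM over the knockout libraries and from 7.18 to 3133 FPKM over the wild-type libraries. Epcam, an epithelial adhesion molecule, was below 1 FPKM in both libraries of 45555 and of 47298. The keratin genes Krt8 and Krt18 of the same list were below 1 FPKM in both libraries of 45555 but not in 47298. There they were at 156.6 and 250.3 FPKM in knockout and at 38.5 and 52.7 FPKM in wild type.

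The loci were placed with the GENCODE M21 annotation of GRCm38, which matches the mm10 build of the deposited values, and all 10 genes are protein coding. A pair of receptors lie beside each other on chromosome 15, Osmr at chr15:6813577-6874969 on the minus strand and Lifr at chr15:7090614-7197489 on the plus strand, with 215644 bases and 0 protein-coding genes between them. A pair of ligands lie beside each other on chromosome 11, Osm at chr11:4236420-4241026 and Lif at chr11:4257557-4272514, both on the plus strand, with 16530 bases between them. The others are Il6st at chr13:112464070-112510086, Il6ra at chr3:89864059-89913196, Il11ra1 at chr4:41699989-41769474, Il6 at chr5:30013114-30019981, Il11 at chr7:4772373-4782859 and Clcf1 at chr19:4214238-4223490. The annotated span of Il11ra1 overlaps other protein-coding genes, among them Rpp25l, Dctn3, Arid3c, Galt and Ccl27a, and Clcf1 overlaps AC109138.7, which was not analysed here. This overlap is of whole annotated spans, not of exons. The sources used here do not state strandedness, so how reads in shared stretches were assigned is unknown.

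The promoters of Il6st and Osmr are shown because these receptor chains, which form the oncostatin M receptor together, had the same order of knockout and wild type in lines 45555 and 47298 and because both windows hold the same run of letters. Each window is the 250 bases before the RefSeq start (build GRCm38.p6), written 5′ to 3′ on the gene's strand, with TTACGGGAA or its reverse complement TTCCCGTAA in capitals. For Il6st the window is chr13:112463820-112464069 on the plus strand, and for Osmr it is chr15:6874314-6874563 on the minus strand, where GENCODE extends the gene farther upstream.
Il6st: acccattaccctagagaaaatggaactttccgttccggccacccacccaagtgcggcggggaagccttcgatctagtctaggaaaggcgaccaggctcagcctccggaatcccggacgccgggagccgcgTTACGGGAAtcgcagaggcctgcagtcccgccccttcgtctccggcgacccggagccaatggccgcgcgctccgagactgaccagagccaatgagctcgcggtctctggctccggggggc
Osmr: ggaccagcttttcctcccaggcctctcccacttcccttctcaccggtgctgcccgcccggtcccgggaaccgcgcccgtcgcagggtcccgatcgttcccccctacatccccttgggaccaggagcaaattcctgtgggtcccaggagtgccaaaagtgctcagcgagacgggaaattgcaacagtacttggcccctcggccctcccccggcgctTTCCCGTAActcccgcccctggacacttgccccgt
The run lies 120 to 112 bases before the start in Il6st and, on the opposite strand, 35 to 27 bases before the start in Osmr. On either strand it occurred in 32 of 32851 such windows over all genes (0.0974%). The looser pattern TTNCNNGAA, which covers it, was in 1 window each of Il6st, Osmr and Il11ra1, against 11.1% of all windows. The run was chosen after both promoters had been read, and a match is a description of letters, not of a bound site.

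Of the 10 genes, 8 had at least 1 promoter in the RefSeq table, with 11 windows in all. The STAT-type pattern TTCNNNGAA, read on both strands, was in none of the 11, against 7.02% of all windows. The AP-1-type pattern TGANTCA was in 1 window each of Il6, Il11 and Lif, against 6.75% of all windows. The cAMP-response pattern TGACGTCA was in none of the 11, against 1.55%. Only TGANTCA had matches, each in a different window, so matches of these 3 patterns could not overlap.

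Il6st had the highest level of the 5 receptor chains in 8 of the 9 libraries, and the ligands followed another order. Il6st stood at 76.1 FPKM in knockout and 93.2 FPKM in wild-type cells of 45555, at 69.8 and 136.6 FPKM in those of 47298, and at 21.2 and 22.2 FPKM in those of 45566B. The single-state lines held 13.6 FPKM in 46295 knockout, against 41.1 FPKM in 33373 and 58.8 FPKM in 33377 wild type. The knockout library was the lower one of every pair, but the 4 knockout libraries (45.2 ± 32.3 FPKM, SD, n = 4) overlapped the 5 wild-type libraries (70.4 ± 45.3 FPKM, SD, n = 5). All 4 libraries of 45555 and 47298 lay above the other 5.

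**Figure D1:**
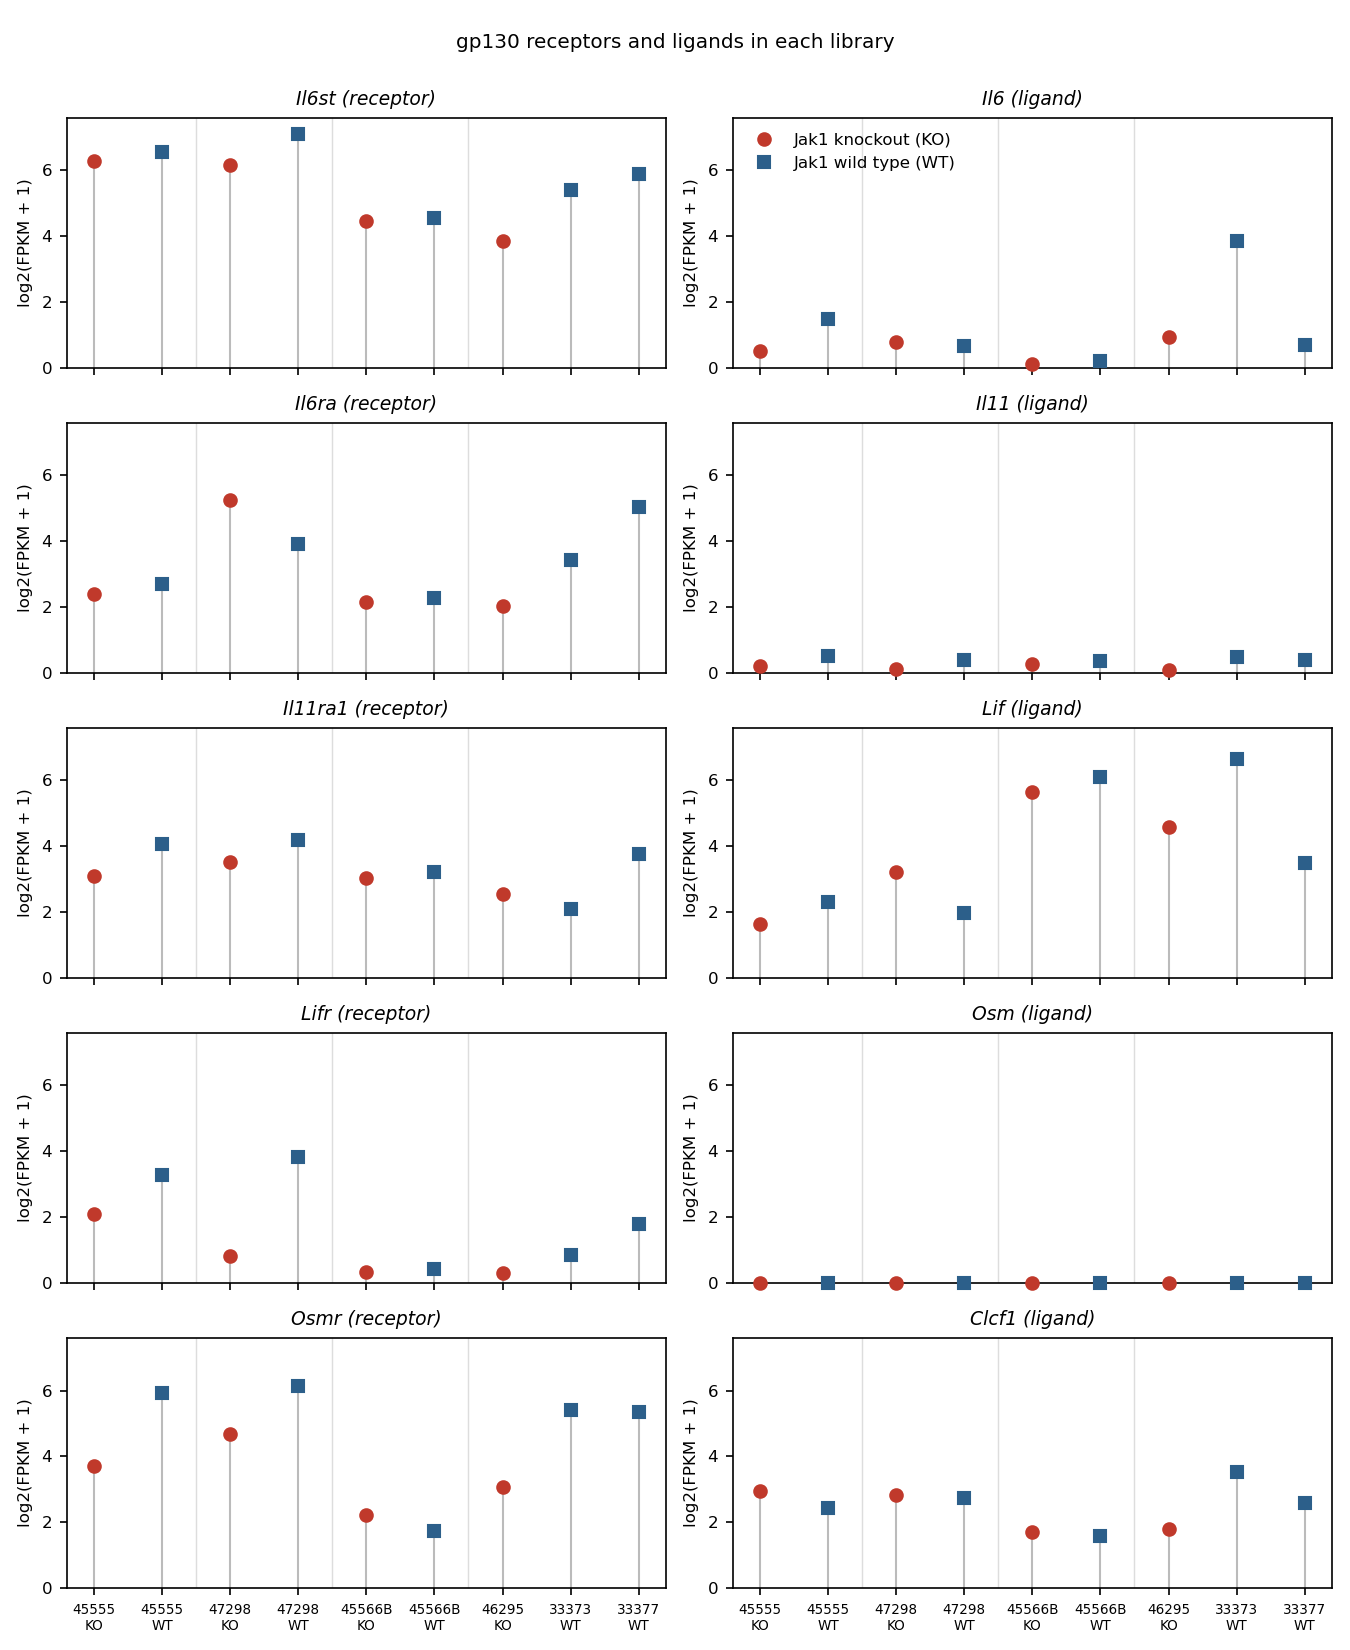
Level of each gene as log2(FPKM + 1) on the vertical axis in the 9 libraries on the horizontal axis, with knockout libraries as circles and wild-type libraries as squares, and the partners of a line side by side. Il6st is high in lines 45555 and 47298, Lif is high in 45566B, 33373 and 46295, and Osm is at 0 in all 9 libraries.

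Osmr, the chain that pairs with gp130 for oncostatin M, ranged 29.5-fold from its lowest to its highest library. It was at 12.1 FPKM in knockout and 59.1 FPKM in wild-type cells of 45555 and at 24.5 and 69.5 FPKM in those of 47298. In 45566B the order was the opposite, at 3.72 FPKM in knockout and 2.36 FPKM in wild type. The single-state lines held 7.39 FPKM in 46295 knockout, against 41.8 and 39.99 FPKM in wild-type 33373 and 33377. The groups overlapped, because 45566B wild type was the lowest library of all. The other wild-type libraries lay above every knockout library. How many of all genes separate with a library set aside in this way was not counted.

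Lifr, the LIF receptor chain, ranged 55.5-fold and was at 3.29 FPKM in knockout and 8.72 FPKM in wild-type cells of 45555. In 47298 it was at 0.769 FPKM in knockout and 13.3 FPKM in wild type, so the wild-type level was 17.3 times the knockout level. In 45566B both libraries were low, at 0.261 FPKM in knockout and 0.346 FPKM in wild type. The single-state lines held 0.241 FPKM in 46295 knockout, against 0.814 and 2.44 FPKM in wild-type 33373 and 33377. The knockout library was again the lower one of each pair, and the groups overlapped because 45555 knockout lay above 3 of the 5 wild-type libraries.

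The alpha chains bind their cytokine but leave signalling to gp130. Il11ra1, which binds IL-11, was at 7.56 FPKM in knockout and 15.8 FPKM in wild-type cells of 45555, at 10.5 and 17.3 FPKM in those of 47298 and at 7.21 and 8.29 FPKM in those of 45566B. It was at 4.91 FPKM in 46295 knockout, against 3.30 and 12.6 FPKM in wild-type 33373 and 33377. Its range over the libraries, 5.25-fold from lowest to highest, was the narrowest of the receptors. Its near-identical mouse paralog Il11ra2 is listed at 0 in every library, and the sources used here do not state how reads are shared between such copies, so the Il11ra1 level is uncertain to that extent.

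Il6ra, which binds IL-6, was at 4.25 FPKM in knockout and 5.56 FPKM in wild-type cells of 45555 and at 3.47 and 3.84 FPKM in those of 45566B. In 47298 it was at 36.98 FPKM in knockout and 14.1 FPKM in wild type, which is 2.62 times higher in knockout. It was at 3.13 FPKM in 46295 knockout, against 9.74 and 31.7 FPKM in wild-type 33373 and 33377. The 47298 knockout library thus stood far above the other 3 knockout libraries, which lay between 3.13 and 4.25 FPKM.

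Among the ligands, Lif was the main transcript in 6 libraries and Clcf1 in the other 3. Lif was at 49.2 FPKM in knockout and 68.2 FPKM in wild-type cells of 45566B, where it made up 95% and 96.5% of the summed level of the 5 ligands. It was at 2.1 FPKM in knockout and 3.98 FPKM in wild-type cells of 45555, and at 8.24 and 2.91 FPKM in those of 47298. The single-state lines held 23.0 FPKM in 46295 knockout, against 98.8 FPKM in 33373 and 10.2 FPKM in 33377 wild type. In 45566B, 46295 and 33373 Lif was also above Il6st, the highest receptor chain in 3 of these 4 libraries, and in the other 5 libraries it was below Il6st.

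The 4 libraries with the highest Lif and the lowest Il6st were the same, the libraries of 45566B, 46295 and 33373. Their epithelial marker sums were 3149 and 3133 FPKM in 45566B knockout and wild type, 3157 FPKM in 46295 knockout and 2617 FPKM in 33373 wild type. The other 5 libraries had epithelial marker sums between 7.18 and 414.5 FPKM. Pearson's correlation of log2(FPKM + 1) between Lif and Il6st was -0.77 over the 9 libraries and -0.88 without 33373 and 33377, a description only, since the partners of a line share their tumour and the points fall into clusters. What part the epithelial character has in these levels was not tested.

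**Figure D2:**
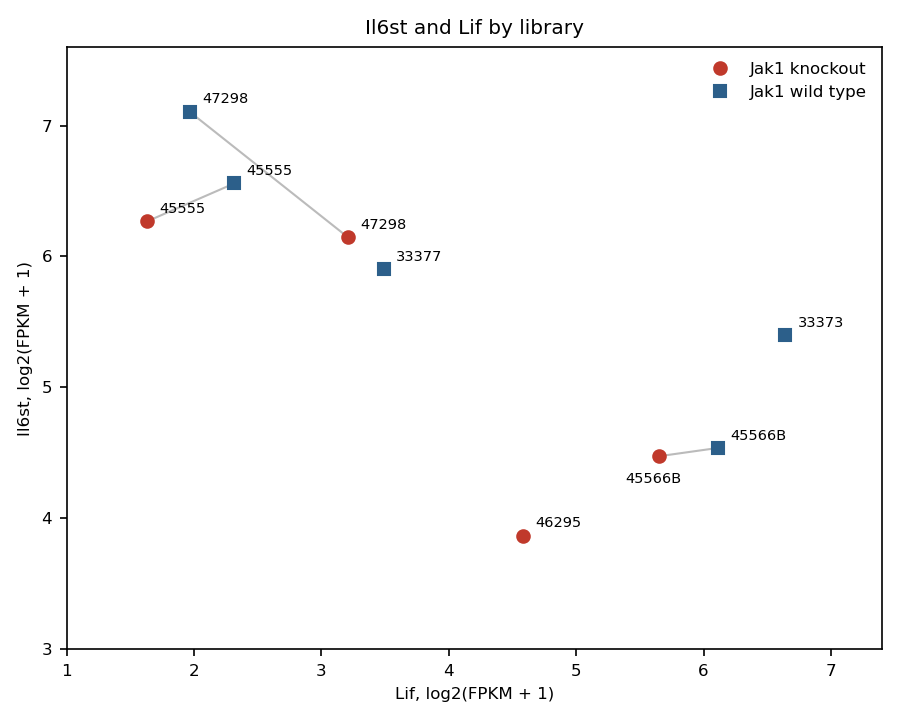
Level of Il6st (vertical) against Lif (horizontal), both as log2(FPKM + 1), in the 9 libraries, with grey lines joining the knockout (circle) and wild-type (square) library of a line. Libraries of 45566B, 46295 and 33373 lie at the lower right, and those of 45555, 47298 and 33377 at the upper left.

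Clcf1, the ligand of the CNTF receptor complex, varied least among the ligands above 1 FPKM and was slightly higher in knockout in every pair. It was at 6.75 FPKM in knockout and 4.36 FPKM in wild-type cells of 45555, at 6.06 and 5.67 FPKM in those of 47298 and at 2.26 and 1.998 FPKM in those of 45566B. It was at 2.51 FPKM in 46295 knockout, against 10.5 and 4.98 FPKM in wild-type 33373 and 33377, so the groups overlapped and the highest level was in a wild-type library.

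Il6, the interleukin that names the family, was low in all libraries but 1. It was at 0.445 FPKM in knockout and 1.78 FPKM in wild-type cells of 45555, at 0.712 and 0.591 FPKM in those of 47298 and at 0.0834 and 0.165 FPKM in those of 45566B. It was at 0.926 FPKM in 46295 knockout, against 13.5 FPKM in 33373 and 0.610 FPKM in 33377 wild type. In the 7 libraries other than 33373 and 33377, the Il6 values times the relative depth were whole multiples of 1 step, within 0.05 of a step. The multiples were 10 in knockout and 30 in wild type for 45555, 14 and 13 for 47298, and 2 and 6 for 45566B, with 14 in 46295 knockout. If a step is 1 fragment, the 45566B values rest on 2 and 6 fragments, and a smaller true step would raise these numbers in the same ratio.

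Il11, the ligand of Il11ra1, was under 0.5 FPKM everywhere, and its knockout libraries all lay below its wild-type libraries. It was at 0.167, 0.0821, 0.224 and 0.0712 FPKM in knockout 45555, 47298, 45566B and 46295. In wild type it was at 0.438, 0.318 and 0.282 FPKM in 45555, 47298 and 45566B, and at 0.401 and 0.329 FPKM in 33373 and 33377. These levels are near the floor and may rest on few fragments, and no common step was found for Il11 by which to count them. The lowest value, in 46295 knockout, came from the shallowest library, at a relative depth of 0.417. Of the 6550 genes above 0 and under 1 FPKM on average, 0.321% had every knockout library below every wild-type library, as had 0.303% of the 12198 genes above that level. When genes of any level were fitted, the difference on the log2(FPKM + 1) scale was -0.25 (SE 0.05) over all libraries (limma, unadjusted p = 0.00122, adjusted p = 1). Without 33373 and 33377 it was -0.245 (SE 0.066; limma, unadjusted p = 0.00908, adjusted p = 1). Over the 3 lines it was -0.22 (SE 0.065; limma, adjusted p = 0.797). Il11 was under the filter of both main fits and was not tested there.

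Osm, which is made mainly by immune cells, is listed at 0 in all 9 libraries. Among 8 immune markers, Cd3e is listed at 0 in every library, and the summed level was between 1.04 and 106 FPKM over the knockout libraries and between 0.73 and 17.9 FPKM over the wild-type libraries. Nearly all of the highest sum was Cd68, a lysosomal protein, at 106 FPKM in 46295 knockout.

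The first comparison set knockout against wild type inside lines 45555, 47298 and 45566B, which asks whether the receptors and ligands of gp130 differ with the Jak1 label in the same tumour line. In 45555 Osmr, Lifr and Il11ra1 had the most negative differences on the log2(FPKM + 1) scale, in 47298 Lifr and Osmr were lower while Il6ra and Lif were higher, and in 45566B all differences were under 0.5 on that scale. That scale compresses low levels. By the ratio of FPKM in 45555, Osmr was at 0.2045, Il6 at 0.25, Lifr at 0.377 and Il11 at 0.382 of the wild-type level, and the ratios of Il6 and Il11 rest on low values. Of the genes of the set that were tested, Il6st, Il11ra1 and Lifr were lower in knockout in 3 of 3 lines, which among all genes tested held for 13.3%. Il11, which was too low to be tested, was also lower in 3 of 3 lines. Clcf1 was higher in 3 of 3 lines, which held for 14.3% of genes.

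**Figure D3:**
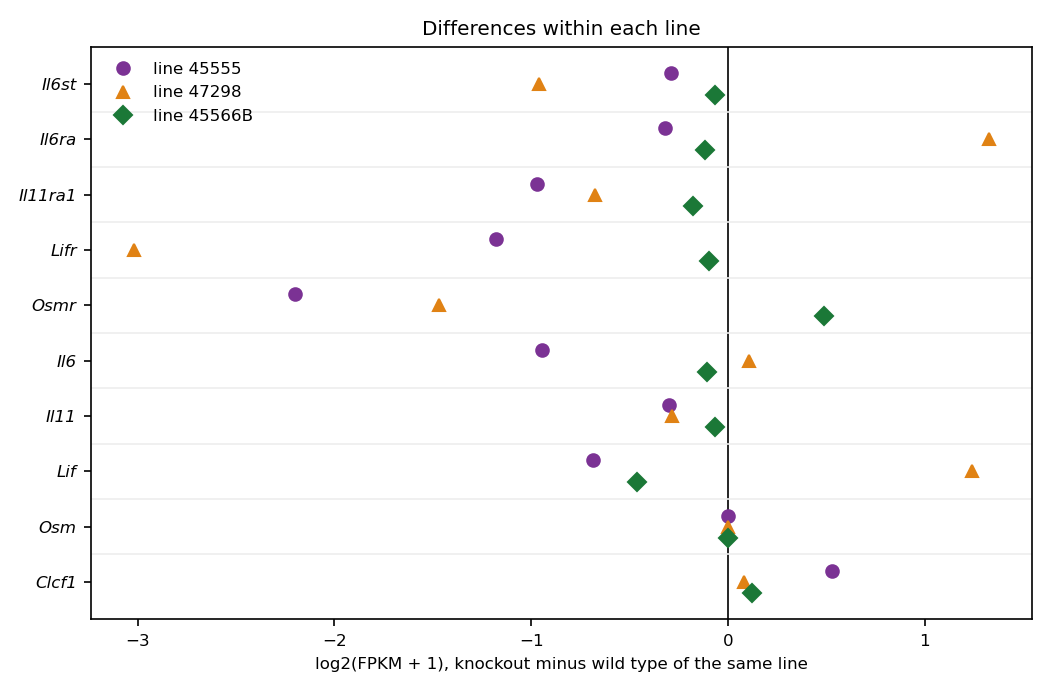
Difference in log2(FPKM + 1), knockout minus wild type of the same line, on the horizontal axis for each gene, with circles for line 45555, triangles for 47298 and diamonds for 45566B. Each point is 1 pair of libraries with no error. Osmr, Lifr and Il11ra1 lie left of 0 in 45555 and 47298, Il6ra and Lif lie right of 0 in 47298 only, and the points of 45566B lie close to 0.

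In 45555 the difference on the log2(FPKM + 1) scale was -2.20 for Osmr and -1.18 for Lifr, at percentiles 1.1 and 4.8 of the 12063 genes tested. These 2 genes were at or below -1 in this line, as were 6.68% of all genes, and no gene of the set was at or above 1, against 3.2% of all genes. Il11ra1 was at -0.97, Lif at -0.68 and Clcf1 at 0.53. On this scale Lifr and Osmr thus had the largest negative differences of the set in this line, and Il6st at -0.29 and Il6ra at -0.32 were within the bulk of genes.

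In 47298 the difference was -3.02 for Lifr and -1.47 for Osmr, at percentiles 2.4 and 6.7 of all genes tested. These 2 genes were at or below -1, as were 11% of all genes. Il6ra at 1.33 and Lif at 1.24 were at or above 1, as were 8.49% of all genes. The Lif and Il6ra differences in this line were thus opposite in sign to those of the other lines. In the same pair the summed level of 9 mesenchymal and fibroblast markers was 2558 FPKM in knockout and 9080 FPKM in wild type, and the epithelial sum was 414.5 FPKM in knockout and 100.0 FPKM in wild type. All 9 mesenchymal markers were lower in this knockout library, and the summed level of 5 adipocyte markers was 53.8 FPKM in knockout and 1299.9 FPKM in wild type, with Fabp4, a fatty acid carrier, at 15.5 FPKM in knockout and 885.3 FPKM in wild type. Zeb1, a mesenchymal transcription factor among these markers, was at 9.91 FPKM in knockout and 32.3 FPKM in wild-type cells of 47298. In the 45555 pair the epithelial sum was 7.45 FPKM in knockout and 7.18 FPKM in wild type, the adipocyte sum 388.9 and 546.9 FPKM, and the mesenchymal sum 7618 and 8864 FPKM. Of the 9 mesenchymal markers, 8 were lower in knockout in 45555 too, among them the collagen gene Col3a1 at 240.8 FPKM in knockout and 883.4 FPKM in wild type, and the receptor gene Pdgfra at 41.3 and 143.3 FPKM. Vim, an intermediate filament gene and the highest of the markers, was at 3218 FPKM in knockout and 2595 FPKM in wild type there. The collagen gene Col1a1 was at 1675 FPKM in knockout and 1879 FPKM in wild-type cells of 45555, against 65.5 and 1728 FPKM in those of 47298. Lifr and Osmr were lower in knockout in both pairs. The part of the epithelial, mesenchymal and adipocyte markers in the receptor levels was not tested.

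In 45566B, the pair with high epithelial markers, no gene of the set reached a difference of 1 in either direction, against 2.17% of all genes lower and 0.854% higher. The differences ran from -0.46 for Lif to 0.49 for Osmr. Most genes differed little in this pair, and Osmr at 0.49 stood at percentile 96.6 and Lif at -0.46 at percentile 5.5 of all genes. The mesenchymal sum here was 167.5 FPKM in knockout and 84.4 FPKM in wild type, with Vim at 88.5 and 20.2 FPKM. Of the 9 mesenchymal markers, 4 were lower and 5 higher in knockout. Their part in the Osmr level was not tested.

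**Figure D4:**
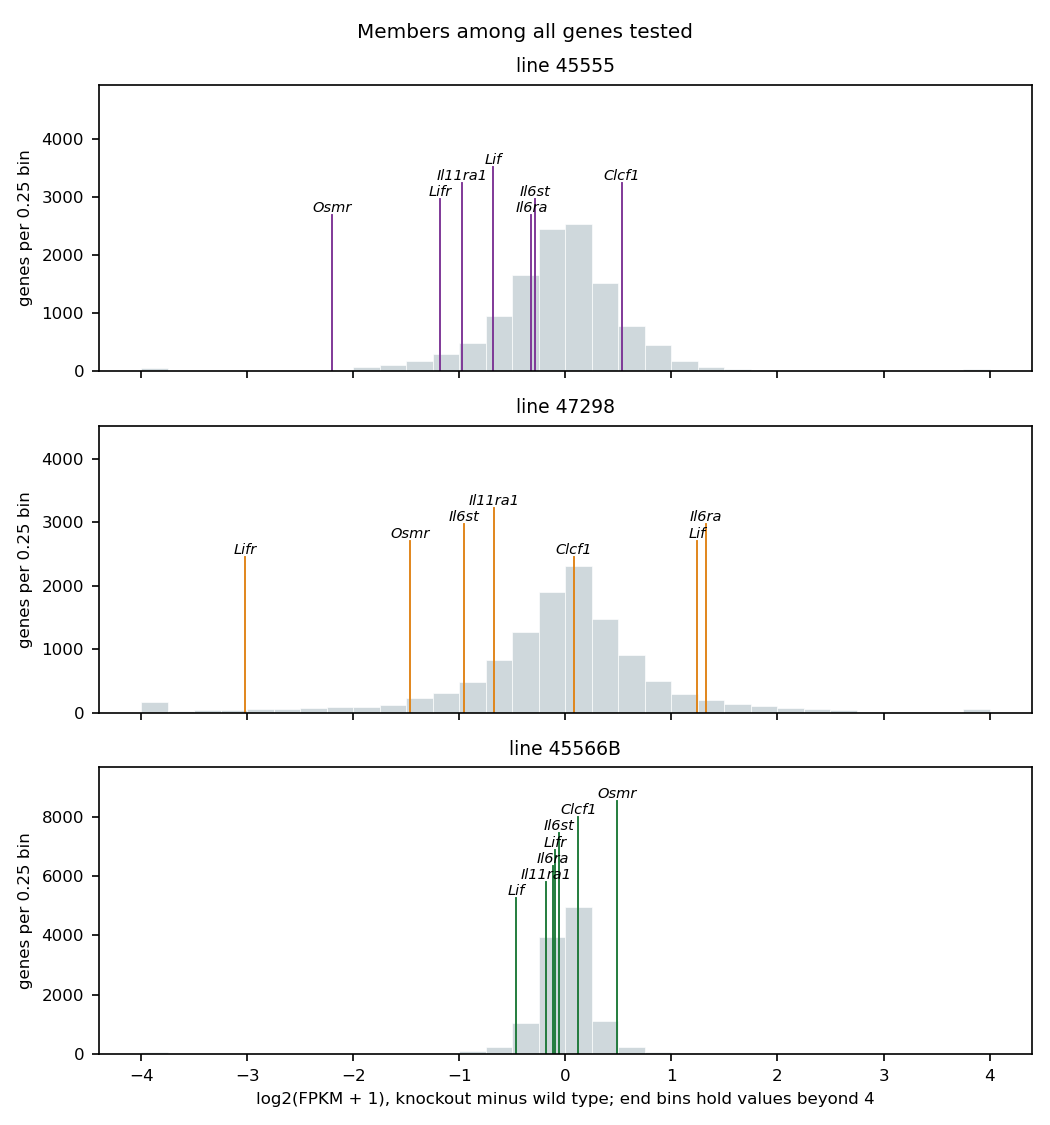
Number of genes in bins of the difference in log2(FPKM + 1), knockout minus wild type, for each of the 3 lines (grey bars, 12063 genes), with coloured lines at the 7 genes of the set that were tested. Osmr and Lifr stand in the left tail in 45555 and 47298, and in 45566B both the bulk of genes and the set are close to 0.

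Over the 3 lines, tested with limma on log2(FPKM + 1) with the line as a block, 7 of the 10 genes had a mean of at least 1 FPKM and entered the fit. Il6, Il11 and Osm did not. None of the 7 passed at an adjusted p under 0.05, and neither did any of the 12063 genes (0% called in each direction). At an unadjusted p under 0.05 there were 406 genes, 1.86% of all genes lower and 1.51% higher. Il11ra1 was 1 of the lower ones, with a log2 fold change of -0.61 (SE 0.22; limma, unadjusted p = 0.0479, adjusted p = 0.762). Lifr had a log2 fold change of -1.43 (SE 0.62), Osmr of -1.06 (SE 0.58) and Il6st of -0.44 (SE 0.23; limma, adjusted p = 0.762 for each).

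For the others the 3 lines gave no common direction or a small one. The log2 fold change was 0.30 (SE 0.39) for Il6ra and 0.03 (SE 0.45) for Lif, and without 47298 both had the opposite sign, at -0.22 and -0.57. Clcf1 had a log2 fold change of 0.25 (SE 0.20; limma, adjusted p = 0.763). The 95% interval ran from -3.14 to 0.28 for Lifr and from -2.64 to 0.52 for Osmr, and both intervals include 0. The estimates depended on single lines. Without 45555 Osmr was at -0.49 and Clcf1 at 0.10, without 47298 Lifr was at -0.64 and Il6st at -0.18, and without 45566B, the line with the small differences, Osmr was at -1.83 and Lifr at -2.1. None of these passed.

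**Figure D5:**
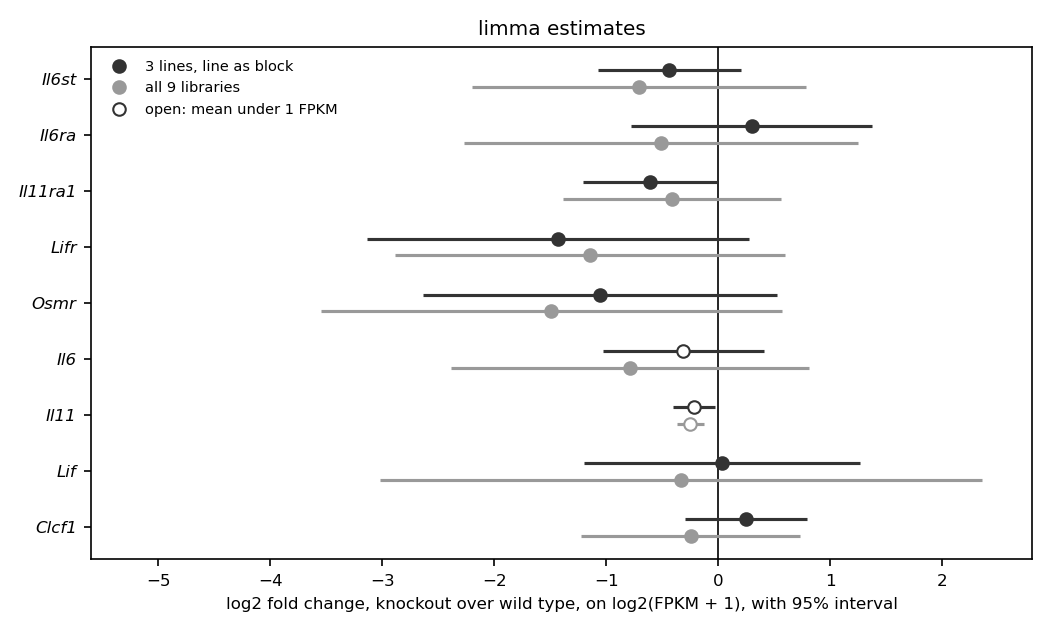
Log2 fold change of knockout over wild type on the log2(FPKM + 1) scale with its 95% interval from limma, for the 3 lines with the line as a block (dark) and for all 9 libraries (grey). Open circles mark fits that included genes with a mean under 1 FPKM. Lifr and Osmr have the most negative estimates in both comparisons, and their intervals include 0.

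The second comparison set all 4 knockout libraries against all 5 wild-type libraries, which adds the lines present in 1 state. Here 8 of the 10 genes entered the fit, Il6 through its level in 33373. None passed, as none of the 12198 genes did (0% called in each direction), and 144 genes had an unadjusted p under 0.05, 0.959% of all genes lower and 0.221% higher. Osmr averaged 11.9 ± 9.07 FPKM in knockout and 42.6 ± 25.6 FPKM in wild type (SD, n = 4 and 5), with a log2 fold change of -1.49 (SE 0.91; limma, adjusted p = 1). Lifr averaged 1.14 ± 1.45 FPKM in knockout and 5.13 ± 5.68 FPKM in wild type, with a log2 fold change of -1.15 (SE 0.77). Without 33373 and 33377, Osmr was at -1.18 and Lifr at -1.63.

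The log2 fold change over all 9 libraries was -0.71 (SE 0.66) for Il6st, -0.51 (SE 0.78) for Il6ra and -0.41 (SE 0.43) for Il11ra1, each with an adjusted p of 1 (limma). Without 33373 and 33377 these were -0.88, -0.01 and -0.77. Il6 was at -0.79 (SE 0.71), and it had no place in the fit without 33373, where its mean was under 1 FPKM. Lif was at -0.34 (SE 1.19) and Clcf1 at -0.25 (SE 0.43), and without 33373 and 33377 both had the opposite sign, at 0.30 and 0.08.

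Of 11 other receptors and ligands of the gp130 family, 4 entered the fit of the 3 lines, 2 lower and 2 higher, and none passed. Cntfr, the CNTF receptor chain, was at 9.49 FPKM in knockout and 5.65 FPKM in wild-type cells of 45566B and listed at 0 in both libraries of 45555. Ctf1, cardiotrophin-1, was at 0.166 FPKM in knockout and 0.873 FPKM in wild-type cells of 45555, at 4.41 and 1.39 FPKM in those of 47298 and at 7.03 and 5.42 FPKM in those of 45566B, so its direction was not common to the lines. Il27ra, the IL-27 receptor chain, was at 0.403 FPKM in knockout and 6.41 FPKM in wild-type cells of 47298 and under 1 FPKM in the other 7 libraries. Il27ra thus had the same order as Lifr in 47298.

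Of 22 genes that relay, shed or limit the gp130 signal, 21 entered the fit of the 3 lines, 13 lower and 8 higher in knockout, where 51.4% of all genes were lower and 48.6% higher, with a median log2 fold change of -0.07, against -0.01 over all genes. None passed, and 2 of the 21 had an unadjusted p under 0.05, both lower, as had 1.86% of all genes. Among them was Socs1, a feedback inhibitor, at a log2 fold change of -0.71 (SE 0.26; limma, adjusted p = 0.762). Stat3, the main transcription factor downstream of gp130, had a log2 fold change of -0.92 (SE 0.38). It was at 19.0 FPKM in knockout and 66.5 FPKM in wild-type cells of 45555, and at 46.0 and 92.3 FPKM in those of 47298. In 45566B Stat3 was at 45.7 FPKM in knockout and 46.4 FPKM in wild type.

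Of 23 genes known as gp130 and STAT3 targets, 21 entered that fit, 16 lower and 5 higher, with a median log2 fold change of -0.46. Over all genes 51.4% were lower and the median was -0.01. None passed and 4 of the 21 had an unadjusted p under 0.05, all lower, as had 1.86% of all genes. Serpina3n, an acute-phase protease inhibitor, was at 1.98 FPKM in knockout and 50.9 FPKM in wild-type cells of 45555, at 26.2 and 711 FPKM in those of 47298, and at 1.51 and 2.02 FPKM in those of 45566B. The log2 fold change was -2.25 (SE 0.73) for Fos, a subunit of AP-1, and -0.59 (SE 0.19) for the kinase Pim1. Socs3, the feedback inhibitor that binds gp130, was at 4.55 FPKM in knockout and 10.4 FPKM in wild-type cells of 45555 and at 2.37 and 24.1 FPKM in those of 47298. In 45566B it was at 0.496 FPKM in knockout and 0.280 FPKM in wild type, so Socs3, like Osmr, was higher in the knockout library of that pair and lower in those of the other 2.

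For each gene with a mean of at least 1 FPKM the genes closest in pattern were taken by Pearson's correlation of log2(FPKM + 1) over the 9 libraries, which include 3 pairs of 1 line each. Il6st was closest to Meis2 (0.99) and Zeb1 (0.98), Lifr to Tacc1 (0.99) and Nrn1 (0.99), and Osmr to Rab2b and Vps52 (0.96 each). Il6ra was closest to Cdhr1 (0.99) and Rnh1 (0.98), and Il11ra1 to Qdpr (0.96) and Leprot (0.95). Of the ligands, Lif was closest to S100a8 (0.98) and Rfk (0.97), Il6 to Pde7b and Saa2 (0.94 each), and Clcf1 to Arl8a (0.94) and Ankrd50 (0.93). Among the receptors, Il6st had a correlation of 0.87 with Lifr and 0.81 with Osmr, and Lif one of -0.78 with Lifr. Without 33373 and 33377 these were 0.88, 0.87 and -0.82. The correlations with the closest genes were then between 0.9 and 0.995, except those of Il6, which was at 0.55 with Pde7b, while Saa2 is listed at 0 in these 7 libraries. In bulk cultures, a smaller share of cells that express a gene and less RNA per cell cannot be told apart.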

How the data were processed

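RNA of 9 cell line libraries was sequenced, 1 library for each line and state. The deposited values are FPKM per gene symbol, made by the authors on build mm10 with cutadapt, TopHat2 2.1, Cufflinks 2.2 and Cuffnorm, per the submitters' processing notes. The sources used here name no annotation, scaling option or filter. Of 2 tables, the smaller repeats 4 libraries with identical values, and the larger was used. In it, 4 rows with a repeated name were left out. Count tests do not apply to FPKM, and depth is known only in relative terms, from the most frequent ratio of values under 0.5 FPKM. Genes averaging 1 FPKM or more entered limma (version 3.58.1, R 4.3.3) as log2(FPKM + 1), with a variance trend, two-sided, with Benjamini-Hochberg adjustment over all genes at 0.05. Fold changes on this scale understate the change of low genes. The fit of 3 lines had the line as a block, since both states come from 1 line. Partners deviated together (correlations 0.7, 0.399 and 0.804 for 45555, 47298 and 45566B). Named are all 10 genes, of each pathway list the 3 with the smallest p with Jak1, Stat3 and Socs3, and the 2 genes closest in pattern, apart from some genes that are not reported here. Ctf1, Zeb1, Cd68, Col1a1, Col3a1, Pdgfra, Vim, Fabp4, Krt8 and Krt18 were named after their values were seen. The genes and lists were chosen with earlier results of these data known. P-values measure only the spread between these libraries.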

Additional observations from a re-analysis of the deposited data

Results flagged for a closer look

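In 18 groups of 4 or 5 libraries, 2 held a library far from the others on the log2(FPKM + 1) scale, and chance flags about 1 group in 20. The 47298 library stood apart among the knockout libraries for Il6ra, with a gap to the next library of 0.891 of the range. The 45566B library stood apart among the wild-type libraries for Osmr, at the low end, with a gap of 0.822 of the range.

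For 4 genes the knockout minus wild-type difference had opposite signs in different lines and was at least 1 apart. How many of all genes meet this rule was not counted, so the number cannot be called unusual. The SD of the difference over the genes tested was 0.854 in 45555, 1.18 in 47298 and 0.727 in 45566B. The difference in 47298 exceeded that in 45555 by 1.65 for Il6ra, by 1.93 for Lif and by 1.05 for Il6. For Osmr the difference in 45566B exceeded that in 45555 by 2.69. With 1 library for each state of a line, these differences between lines were not tested.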

How the results depend on the processing

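Of 175 values under the alternatives, 167 kept their direction and their side of the threshold and 8 changed sign. No gene of the set came near the threshold in any setting (limma, lowest adjusted p = 0.591), so keeping its side says nothing of stability. The sizes moved, and Lifr ran from -2.1 to -0.637 over the alternatives of the 3-line fit. Without line 47298, Il6ra was at -0.22 and Lif at -0.57 over the other lines, and over the ways of leaving out a line they ran from -0.218 to 0.607 and from -0.573 to 0.39. Over all libraries Lif was at 0.38 without 45555 knockout, 0.17 without 45566B wild type, 0.30 without 33373, and 0.303 without 33373 and 33377, and Clcf1 was at 0.075 without both. Leaving out 1 library in turn, Lif ran from -0.964 to 0.375. With the replicate block (line as a random effect, correlation 0.702) Clcf1 was at 0.058, Lifr at -1.33 and Osmr at -1.22, and 0 genes were called, with 804 at an unadjusted p under 0.05. The cause was not tested. With no replicate block the fit of 3 lines called 0 genes as well, with 58 at an unadjusted p under 0.05, and the block changed no call. Leaving out 1 line in turn gave 0 to 6 called genes (6 without 47298), and leaving out 1 library in turn gave 0 to 1 over all 9. Without short noncoding RNA genes and rescaled, the median over all genes moved to 0.16 in the 3 lines and 0.11 over all libraries, against -0.01 and 0.00 as deposited, and no gene of the set changed sign. In that fit of the 3 lines Il6st was at -0.24, Il6ra at 0.48, Clcf1 at 0.41 and Il11ra1 at -0.42, and Il11ra1 had an unadjusted p of 0.129 (limma). Il11ra1 also had an unadjusted p of 0.0595 with no filter and 0.128 with no replicate block. The values without 33373 and 33377 for Il11 and for the correlations were added after seeing the data. With 2 and 6 steps behind the Il6 values of 45566B, the low level of Il6 limits what can be read there. Depth was not low in this pair, at a relative 0.661 in knockout and 1.0 in wild type.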
